A study of Mus musculus with 6 samples.

Results

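Splicing factors are the proteins that choose and carry out the removal of introns from messenger RNA precursors. The genes described here code for SR proteins, hnRNPs and several core factors, and were taken by symbol: Srsf, Tra2, Clk, U2af, Sf3a, Sf3b and Luc7l genes and genes whose symbols begin with Hnrnp. The rule reads symbols alone, but the set was proposed with earlier results of these data known. It gave 52 of the 24407 genes in the table, and all 52 had enough counts to be tested. Messenger RNA was counted in islets of Langerhans, the hormone-secreting clusters within the pancreas, from C57BL/6 mice aged 70 weeks on regular chow. The 3 wild-type libraries (WT) were compared with 3 libraries from lmna LCS mice (LCS), titled KIKI, which express lamin C as their only product of Lmna. Each library pooled the islets of 3 mice, and the labels give neither sex nor litter. The titles carry numbers of unstated meaning: those of WT replicates 1 and 2 stand apart, and that of WT replicate 3 is next to those of LCS. If these numbers mark an order of handling, that order and the genotype cannot be fully told apart.

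SR proteins carry repeats of arginine and serine, bind exonic sequences and help the splicing machinery to recognise exons. The hnRNPs coat nascent RNA, and many of them oppose SR proteins in the choice of splice sites. U2AF binds the end of the intron, the SF3A and SF3B complexes belong to the U2 snRNP that recognises the branch point, and the Luc7-like proteins are associated with the U1 snRNP at the start of the intron. CLK kinases phosphorylate SR proteins and so change their location and activity. Lamins A and C are themselves alternative products of Lmna, and SRSF1 and SRSF6 are known to act on the splicing of its transcripts.

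Total counts ran from 41529670 to 68036676 in LCS and from 26123654 to 34483948 in WT. The rows Rn45s, Lars2 and Mir6236, which hold ribosomal RNA reads, took 52.29% to 54.11% of the counts in LCS and 7.636% to 18.53% in WT. Levels below are counts scaled to library size with TMM factors (CPM), and differences are log2 LCS minus WT from edgeR's quasi-likelihood test, adjusted over all 14539 genes tested. Lmna stood at 62.4, 62.0 and 78.9 CPM in LCS replicates 1 to 3 and at 61.3, 27.3 and 21.0 in WT replicates 1 to 3, a difference of 0.89 (SE 0.34, edgeR adjusted p = 0.155). A count over the whole gene does not tell lamin A from lamin C transcripts and so does not check the genotype. Beta cell markers summed to 173928 to 262712 CPM in LCS and 146615 to 170603 CPM in WT, so that every LCS library lay above every WT library, although none of the 8 passed the test. Of 9 acinar markers tested, all 9 rose, with a summed level of 419 to 750 CPM in LCS and 110 to 185 CPM in WT. Single markers also rose for PP cells (Ppy), delta cells (Rbp4) and macrophages (Lyz2). The summed lists of these cells were separate between groups too: 3247 to 6029 CPM in LCS and 838 to 1489 in WT for PP cells, 1744 to 2283 and 307 to 1316 for delta cells, and 71.1 to 88.3 and 48.8 to 57.9 for macrophages. B and plasma cell markers summed to 28.8 to 69.1 CPM in LCS and 8.32 to 24.8 in WT, with 0 of 5 called. Hba-a1, Hba-a2 and Hbb-b1 of red blood cells were at 0 in every library. With Alas2, the other of the 4 listed, the sum was 0 in LCS and at most 0.131 CPM in WT. How reads that match several places were counted is not given, so these values do not show that such cells were absent. The part of ribosomal reads and of these cell types in the results below was not tested; without the 3 ribosomal rows the members called were Hnrnpa1 and Srsf1, both lower (background 0.145%, and 2.08% for 0 called higher). In islets taken whole, fewer cells of a type and less RNA per cell cannot be told apart.

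The 52 genes together gave 3639, 4064 and 3671 CPM in the LCS libraries, in replicate order, and 4300, 4590 and 4979 CPM in the WT libraries. The groups did not overlap: each LCS library held less of this RNA than each WT library. As a share of the counts outside the ribosomal rows, the genes made up 0.5462%, 0.6374% and 0.5038% in LCS and 0.7362%, 0.7443% and 0.8106% in WT. Of the 52, 2 were called lower in LCS, Hnrnpa1 and Srsf1, against 0.144% of all tested genes called lower. No member was called higher, where 2.06% of all tested genes were; at an unadjusted p under 0.05, 2 members were higher (background 13.3%). At that unadjusted threshold 18 members were lower, which is 34.6% of them against 10.8% of all tested genes. The median difference of the members was -0.26, beside 0.01 for all tested genes, and 35 members lay below 0 and 17 above.

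For 19 members every LCS library lay below every WT library, 36.5% of the members beside 12% of all tested genes. They comprised 9 hnRNP genes, 6 Srsf genes, the 3 Luc7l genes and Sf3b3. Sf3b5 and Sf3b6 were the 2 members with every LCS library above every WT library (3.85% of members, background 14.6%).

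**Figure D1:**
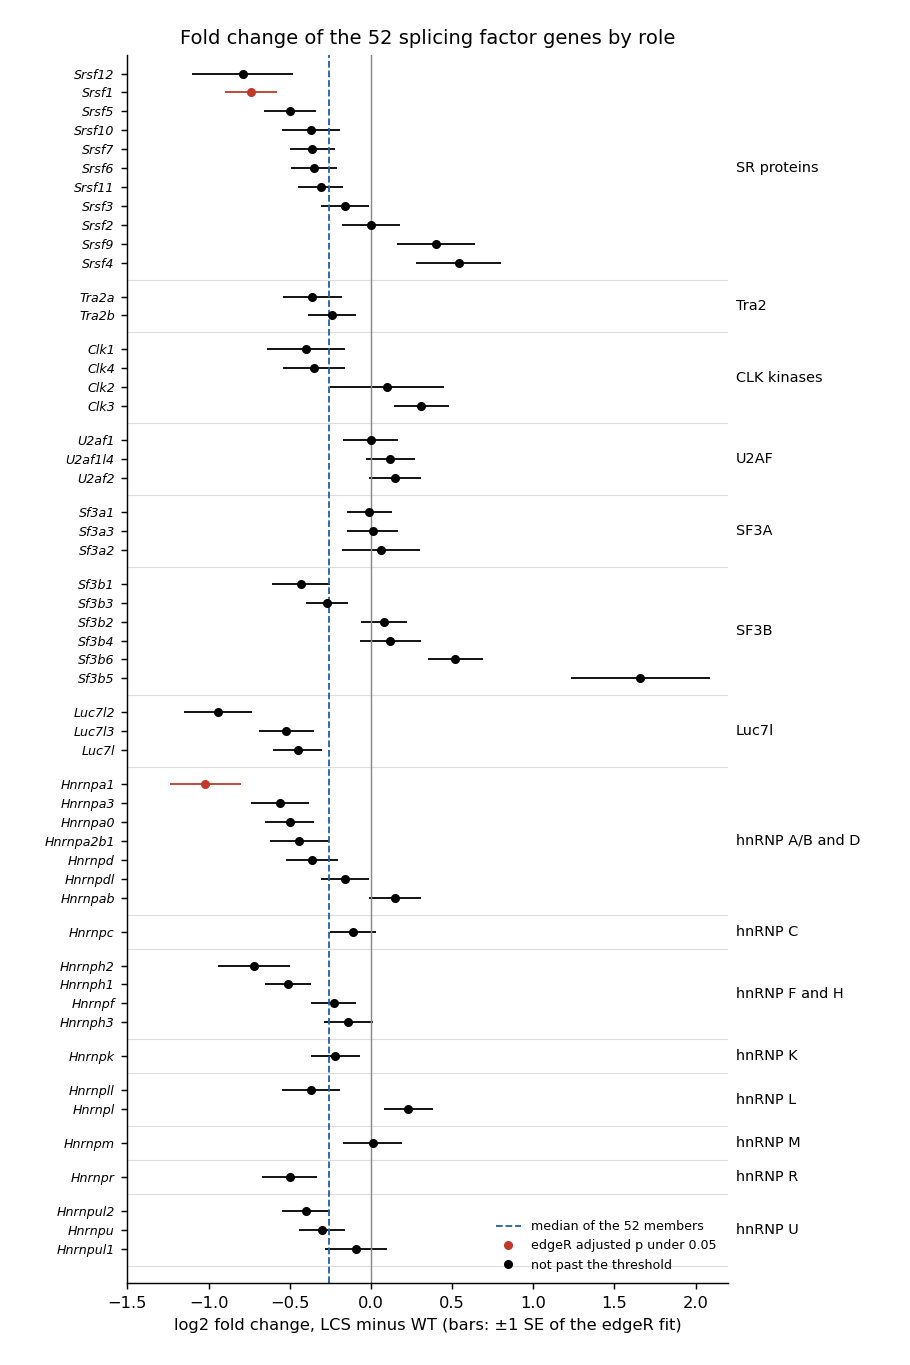
Log2 fold change (LCS minus WT, x axis) of each of the 52 genes, grouped by role. Bars are 1 SE, derived from the edgeR test, and the dashed line is the median of -0.26. Hnrnpa1 at -1.02 and Srsf1 at -0.74, in red, passed the adjusted threshold; Sf3b5 stands apart at 1.66 without passing it.

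Srsf1 codes for the founding SR protein, which promotes exon inclusion and the use of nearby splice sites. Its level, in replicate order as below, was 88.5, 85.3 and 70.4 CPM in LCS and 115, 138 and 155 CPM in WT. All LCS libraries were lower than all WT libraries. Srsf1 fell by 0.74 on the log2 scale (SE 0.16), 1.67-fold, with an edgeR adjusted p of 0.0482. The adjusted p rose to between 0.0648 and 0.191 when LCS replicate 1, 2 or 3 or WT replicate 2 or 3 was left out, and was 0.00623 without WT replicate 1; it was 0.0616 with a length offset and 0.0546 with coding genes alone. An annotated gene, Gm11508, overlaps Srsf1 on the opposite strand, and the sources used here do not state whether counting used strand.

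Hnrnpa1 codes for hnRNP A1, a splicing repressor known to act against SRSF1. Its counts were 155, 321 and 225 in LCS replicates 1 to 3 and 475, 504 and 615 in WT, which gave 5.42, 6.30 and 7.18 CPM in LCS and 9.88, 12.4 and 16.1 CPM in WT. The groups were again separate. Hnrnpa1 fell by 1.02 on the log2 scale (SE 0.22), 2.03-fold, with an edgeR adjusted p of 0.043. Leaving out LCS replicate 1, 2 or 3 or WT replicate 2 or 3 gave adjusted p values from 0.0733 to 0.177, and leaving out WT replicate 1 gave 0.00348; a length offset gave 0.0719.

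The level counted for Hnrnpa1 is uncertain because the gene has many processed copies. Of the stretches of 50 bases in its exons, 46.44% also occur in other annotated genes, and the 19 genes that share them are all pseudogenes. How reads that match several places were counted is not given in the sources used here. The stretch below, 60 bases of the coding sequence (bases 455 to 514 of 1119) at chr15:103242078-103242229 on GRCm38 (GENCODE M21), shows this: it spans an exon junction, lower case before it and capitals after it, and occurs unbroken in 9 pseudogenes.
Hnrnpa1 coding stretch: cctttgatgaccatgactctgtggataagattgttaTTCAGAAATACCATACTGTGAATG

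The 250 bases before the start of each of these 2 genes are given because they are the genes that passed the test. Both come from RefSeq (GRCm38.p6), on the plus strand, and capitals mark matches on either strand to 6 motifs: CCAAT (the CCAAT box), GGGCGG (the GC box), TATAAA (the TATA box), CCGGAA (the core bound by ETS factors), TGACG (the core of the cyclic AMP response element) or ATGGCGG (bound by YY1). Matches of different motifs may overlap.
Srsf1 promoter, chr11:88047123-88047372: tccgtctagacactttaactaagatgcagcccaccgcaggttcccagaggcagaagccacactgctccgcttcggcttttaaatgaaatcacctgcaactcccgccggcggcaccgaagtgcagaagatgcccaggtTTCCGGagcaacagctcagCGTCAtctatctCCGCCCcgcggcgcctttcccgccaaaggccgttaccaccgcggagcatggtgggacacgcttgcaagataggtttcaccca
Hnrnpa1 promoter, chr15:103240147-103240396: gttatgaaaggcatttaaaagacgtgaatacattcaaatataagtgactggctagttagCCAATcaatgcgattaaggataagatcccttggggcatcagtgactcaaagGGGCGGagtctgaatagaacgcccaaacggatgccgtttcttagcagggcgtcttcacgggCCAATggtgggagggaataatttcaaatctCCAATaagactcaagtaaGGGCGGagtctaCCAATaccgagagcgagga
The Hnrnpa1 window held 4 matches to CCAAT and 2 to GGGCGG, and its GC content was 46%. The Srsf1 window held 1 match to GGGCGG, 1 match to CCGGAA and 1 match to TGACG. Its GC content was 58.8%. No match to CCAAT lay in the Srsf1 window and no match to the other 4 motifs in the Hnrnpa1 window. A promoter was listed for 45 of the 52 genes. CCAAT occurred in 46.7% of the 45 and in 36% of 10917 promoters of the same length, GGGCGG in 75.6% and 58.1%, CCGGAA in 40% and 21%, and TGACG in 46.7% and 26.4%. TATAAA was rare in both (8.89% and 6.67%), as was ATGGCGG (6.67% and 3.49%). These are counts of letters, and binding was not measured.

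Among the 11 Srsf genes, 8 lay below 0 and 3 above, with a median of -0.35. At an unadjusted p under 0.05, 5 were lower and 0 higher, beside 10.8% and 13.3% of all tested genes. The product of Srsf5 also binds exonic enhancers, and 27.85% of the gene's exon stretches of 50 bases occur in a pseudogene. Srsf5 had the highest level per length of the Srsf genes, 140 CPM per kb of exon in WT and 99.0 in LCS. It stood at 166, 173 and 153 CPM in LCS and 197, 227 and 271 CPM in WT, with no overlap between groups, and the difference of -0.50 (SE 0.16) had an edgeR adjusted p of 0.111. Srsf12, an SR-related protein gene, was near the lower limit of the test at 0.769, 0.864 and 1.12 CPM in LCS and 1.64, 1.48 and 1.62 CPM in WT. Its difference was -0.79 (SE 0.31, edgeR adjusted p = 0.162), on 22 to 79 counts per library.

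Srsf6 and Srsf7, an activator of exon inclusion and a factor that also takes part in RNA export, differed by -0.35 and -0.36, with edgeR adjusted p values of 0.176 and 0.166. Srsf11 differed by -0.31, and in all 3 of these genes the groups did not overlap. Srsf10, which represses splicing when dephosphorylated, differed by -0.37 with overlapping groups. Srsf3 and Srsf2 were at -0.16 and 0.00, the latter between -0.13 and 0.31 over the 16 alternatives. The Srsf2 libraries lay at 53.8, 60.1 and 57.7 CPM in LCS and 73.4, 51.7 and 46 CPM in WT, so that the WT libraries enclosed the LCS values. Srsf4 and Srsf9 lay on the other side of 0, at 0.54 (SE 0.26) and 0.40 (SE 0.24), with edgeR adjusted p values of 0.23 and 0.323. WT replicate 1 stood above the other WT libraries in both, with 18.8 beside 13.7 and 9.38 CPM for Srsf4. Without WT replicate 1 both were called higher, at 0.82 (edgeR adjusted p = 0.0298) and 0.67 (0.045).

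The Tra2 genes code for SR-like activators of exon inclusion. Tra2a stood at 38.8, 52.6 and 39.7 CPM in LCS and 45.6, 61.1 and 61.5 CPM in WT, a difference of -0.36 (SE 0.18, edgeR adjusted p = 0.251). Tra2b differed by -0.24 (SE 0.15), and in both genes LCS replicate 2 overlapped the WT range.

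Of the 4 CLK kinase genes, 2 lay on each side of 0 and none passed the test. Clk1 was at 61.2, 48.3 and 45.7 CPM in LCS and 43.4, 77.6 and 83.4 CPM in WT. Its WT replicate 1 was lower than every LCS library, and the difference of -0.40 (SE 0.24) had an edgeR adjusted p of 0.328. Clk4 had a like pattern, with 25.3, 21.8 and 25.2 CPM in LCS and 23.0, 34.9 and 34.5 CPM in WT, and a difference of -0.35 (SE 0.19, edgeR adjusted p = 0.271). Both were called lower when WT replicate 1 was left out, at -0.64 and -0.53 with edgeR adjusted p values of 0.023 and 0.0332. Clk3 differed by 0.31 (SE 0.17, edgeR adjusted p = 0.292). Clk2 was low, at 1.73 to 4.91 CPM in all libraries, its difference of 0.10 ranged from -0.26 to 0.46 over the alternatives, and its level is uncertain: a readthrough row that joins Clk2 to its neighbour was listed at 0 throughout, and how reads in shared exons were counted is not given.

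The U2AF and SF3A genes lay between -0.01 and 0.15, with no call. U2af2, the large U2AF subunit that binds the polypyrimidine tract, was at 64.1, 73.2 and 76.6 CPM in LCS and 76.7, 62.6 and 53.3 CPM in WT, a difference of 0.15 (SE 0.16). U2af1, the small subunit, differed by 0.00 (SE 0.17) and its relative U2af1l4 by 0.12 (SE 0.15). Of the U2af1 exon stretches, 59.38% are shared with 3 pseudogenes. The signs of these 3 were not stable: offsets for transcript length and GC made them -0.06, -0.25 and -0.24. Sf3a1, Sf3a2 and Sf3a3 differed by -0.01, 0.06 and 0.01, with SE of 0.14 to 0.24. Their signs were no more stable, and over the alternatives they ranged from -0.15 to 0.16, -0.29 to 0.39 and -0.17 to 0.15.

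The 6 Sf3b genes did not share a direction, with 4 above 0 and 2 below. For 3 of them the sign turned under the offsets for length and GC, Sf3b2 to -0.12, Sf3b4 to -0.16 and Sf3b3 to 0.01. Sf3b1 codes for the large scaffold subunit that holds the branch point. Its level was 106, 127 and 94.8 CPM in LCS and 115, 162 and 167 CPM in WT, a difference of -0.43 (SE 0.18, edgeR adjusted p = 0.185), and LCS replicate 2 overlapped WT replicate 1. Sf3b6 codes for p14, the subunit that contacts the branch point adenosine. It stood at 87.5, 106 and 97.1 CPM in LCS and 53.4, 73.6 and 76.2 CPM in WT. The groups were separate, with a difference of 0.52 (SE 0.17, edgeR adjusted p = 0.117).

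Sf3b5, a small subunit of the same complex, had the widest difference of the 52 genes. Its level was 18.9, 22.7 and 25.5 CPM in LCS and 13, 5.01 and 3.03 CPM in WT. The LCS libraries lay close together, while WT replicate 1 was over the other 2. The difference of 1.66 (SE 0.43) had an edgeR adjusted p of 0.0741. It was 2.48 when WT replicate 1 was left out, with an edgeR adjusted p of 0.000326. Sf3b2, Sf3b3 and Sf3b4 differed by 0.08, -0.27 and 0.12.

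All 3 Luc7l genes were lower in LCS at an unadjusted p under 0.05 (background 10.8%), with separate groups (background 12%). None passed the adjusted threshold. Luc7l2 was at 115, 137 and 89.3 CPM in LCS and 169, 218 and 268 CPM in WT. Its difference of -0.94 (SE 0.21), 1.92-fold, had an edgeR adjusted p of 0.0529. In 7 of 16 alternative analyses it was called, for instance with limma-voom at an adjusted p of 0.0471 and without WT replicate 1 at 0.00459. Luc7l3 was at 40.3, 46 and 46.2 CPM in LCS and 50.5, 63.4 and 75.6 CPM in WT, and Luc7l at 47.7, 42 and 43.2 CPM and 51.4, 68.6 and 62.0 CPM. Their differences were -0.52 (SE 0.17) and -0.45 (SE 0.15), with edgeR adjusted p values of 0.12 and 0.123.

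**Figure D2:**
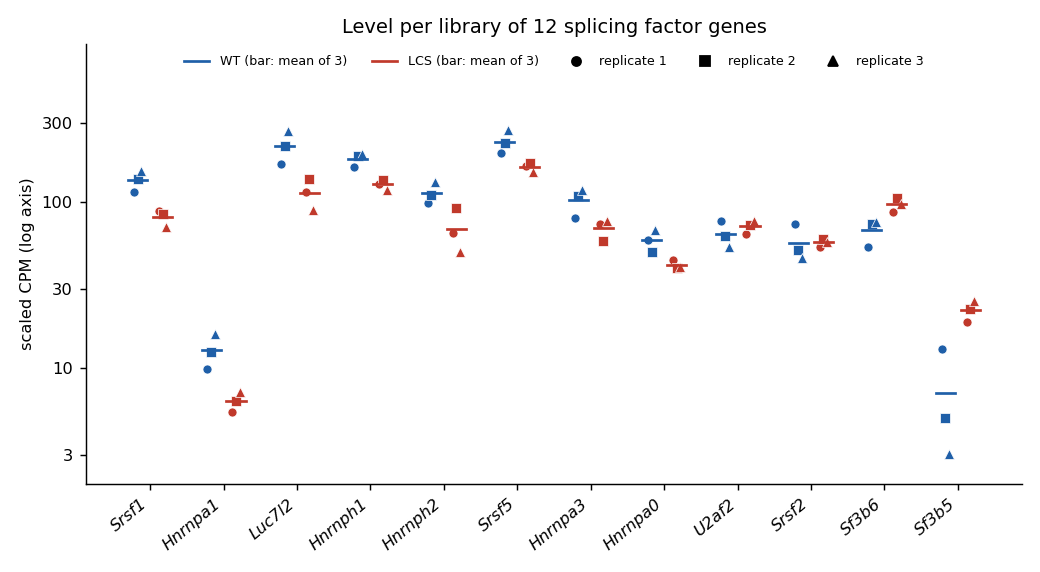
Level in scaled CPM (log axis) of 12 of the genes in each library; blue is WT, red is LCS, the marker shape gives the replicate and the bar the mean of 3. In Srsf1, Hnrnpa1 and Luc7l2 every red point lies below every blue point, U2af2 and Srsf2 overlap, and in Sf3b5 WT replicate 1 at 13 CPM lies above the other WT libraries.

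The hnRNP genes were the largest family, with 20 members, of which 17 lay below 0 and 3 above. Their median was -0.33, and 9 were lower in every LCS library than in any WT library (background 12%). Hnrnpa2b1, which codes for the A2 and B1 proteins, had the highest level per length of all 52 genes, at 175 CPM per kb of exon in WT and 129 in LCS. It stood at 276, 377 and 289 CPM in LCS and 368, 414 and 493 CPM in WT, where LCS replicate 2 overlapped WT replicate 1, with a difference of -0.44 (SE 0.18, edgeR adjusted p = 0.177).

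Of the other A/B and D genes, Hnrnpa3 was at 73.9, 58.6 and 76.6 CPM in LCS and 80.3, 109 and 119 CPM in WT. Hnrnpa0 was at 44.5, 39.8 and 40.4 CPM in LCS and 58.7, 50.2 and 67.7 CPM in WT. Both had separate groups, with differences of -0.56 (SE 0.18) and -0.50 (SE 0.15) and edgeR adjusted p values of 0.115 and 0.102. Hnrnpa3 shares 28.21% of its exon stretches with other genes, 42 pseudogenes among them. Hnrnpd, the AU-rich element binding protein AUF1, differed by -0.36, and its relatives Hnrnpdl and Hnrnpab by -0.16 and 0.15. Hnrnpdl turned to 0.07 under the offsets for length and GC.

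The F and H proteins bind runs of G. Hnrnph1 was at 129, 136 and 119 CPM in LCS and 164, 189 and 194 CPM in WT, and Hnrnph2 at 64.8, 92.2 and 50.2 CPM and 98.7, 110 and 133 CPM. Neither overlapped between groups. Their differences were -0.51 (SE 0.14) and -0.72 (SE 0.22), with edgeR adjusted p values of 0.0856 and 0.103. Hnrnpf and Hnrnph3 were at -0.23 and -0.14. Of the Hnrnpf exon stretches, 51.87% occur in other genes.

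Hnrnpr was at 38.9, 53.6 and 38.8 CPM in LCS and 53.7, 62.9 and 69.2 CPM in WT. LCS replicate 2 lay just below WT replicate 1, so the groups were barely apart, and the difference was -0.50 (SE 0.17, edgeR adjusted p = 0.133). Hnrnpu, a nuclear matrix protein also known as SAF-A, stood at 159, 181 and 165 CPM in LCS and 200, 197 and 225 CPM in WT. Its difference was -0.30 (SE 0.14, edgeR adjusted p = 0.216), and that of its relative Hnrnpul2 was -0.40 (SE 0.15, edgeR adjusted p = 0.153), both with separate groups. Hnrnpul1 was at -0.09 and became 0.14 without WT replicate 1.

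The remaining hnRNP genes overlapped between groups. Hnrnpk, a poly(C) binding protein, was at 261, 316 and 250 CPM in LCS and 305, 321 and 336 CPM in WT, a difference of -0.22 (SE 0.15). Hnrnpc, whose product packages nascent RNA and binds runs of U, was at 109, 124 and 119 CPM in LCS and 116, 125 and 140 CPM in WT, a difference of -0.11 (SE 0.14) that turned to 0.10 under the offsets for length and GC. Hnrnpl and Hnrnpll, which bind CA repeats, differed by 0.23 (SE 0.15) and -0.37 (SE 0.18). Hnrnpm was at 0.01 (SE 0.18), and its sign changed in several alternatives.

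Libraries were not equally placed within their groups. Against the mean of the 3 WT libraries, the median of the 52 genes was -0.29, -0.07 and -0.27 in LCS replicates 1 to 3 and -0.10, -0.01 and 0.08 in WT replicates 1 to 3. LCS replicate 2 was thus close to the WT libraries in its median, and the median of all tested genes stayed between -0.00 and 0.03 in every library. WT replicate 1 was the WT library nearest to the LCS mean for 32 of the 52 genes (61.5%; 55.8% of all tested genes), and among the WT libraries it had the largest share of ribosomal rows, 18.53%. Without it, 14 members were called lower (background 7.68%) and 3 higher (background 12.5%). Those lower were Clk1, Clk4, Hnrnpa1, Hnrnpa3, Hnrnph1, Hnrnph2, Hnrnpr, Luc7l, Luc7l2, Luc7l3, Sf3b1, Srsf1, Srsf5 and Srsf7, and those higher Sf3b5, Srsf4 and Srsf9. Leaving out LCS replicate 1 or 3 or WT replicate 2 or 3 left 0 members called by edgeR in either direction, where 0.581%, 0.547%, 0.748% and 0.931% of all tested genes were higher and 0.0203%, 0.00675%, 0.0202% and 0.0405% lower. Leaving out LCS replicate 2 left Hnrnph2 alone, called lower (background 0.284%, and 1.77% for 0 higher). DESeq2's Wald test on all 6 libraries called 8 members lower (background 3.93%), Hnrnpa0, Hnrnpa1, Hnrnpa3, Hnrnph1, Hnrnph2, Luc7l2, Srsf1 and Srsf5, and Sf3b5 higher (background 6.44%). Hnrnpa1, Luc7l2 and Srsf1 were the 3 called lower with limma-voom (background 0.206%), with no filter (0.663%), with a minimum of 10 CPM (0.307%) and without WT replicates 1 and 2 (2.16%). Coding genes alone gave Hnrnpa1 (background 0.117%), and DESeq2 size factors gave Hnrnpa1 and Srsf1 (0.158%). Sf3b5 was called higher with limma-voom (background 2.54%) and with no filter (2.95%), and with Srsf4 when WT replicates 1 and 2 were left out (5.77%). In the other 3 of these settings edgeR called 0 higher: a minimum of 10 CPM (background 3.53%), coding genes alone (1.68%) and DESeq2 size factors (1.95%). Over the 6 fits that each leave out 1 library, the median difference stayed between -0.30 and -0.20.

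**Figure D3:**
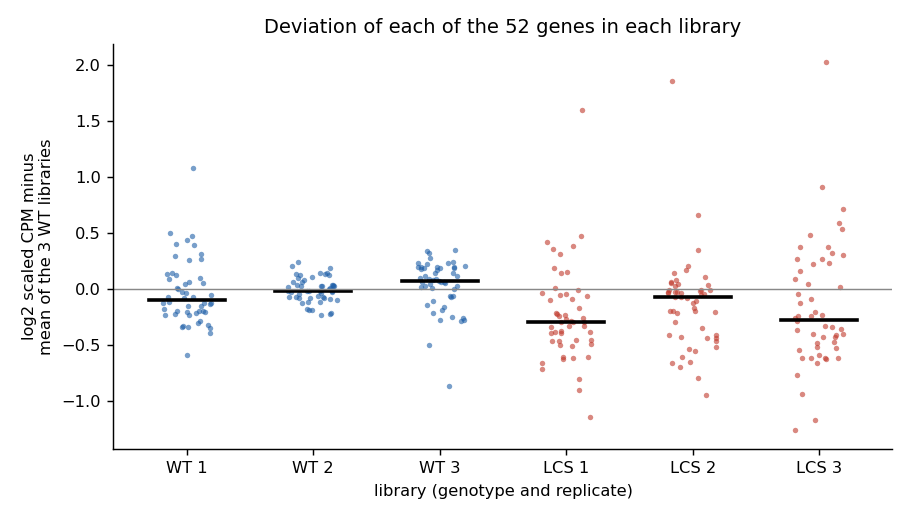
Each point is 1 of the 52 genes in 1 library (x axis): log2 scaled CPM minus the mean of the 3 WT libraries (y axis); black bars are medians. The medians of LCS replicates 1 and 3 are -0.29 and -0.27, and that of LCS replicate 2, -0.07, lies within the range of the WT libraries; the highest points are Sf3b5.

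The transcripts of these genes were AT-rich for coding genes. Their median GC content was 45.5%, beside 50.8% for all tested genes with a value, and differences followed GC content throughout the table. In genes with under 42% GC the median difference was -0.39 over 986 coding genes and -0.38 over the 8 members in that class. From 42% to 46% it was -0.22 over all and -0.36 over the 20 members there. In the class from 46% to 50% the members lay above the other genes, with medians of -0.09 over all and 0.00 over 7 members. The medians from 50% to 54% were close, 0.05 over all and 0.04 over 12 members. At 54% or more they were 0.23 over all and 0.10 over 5 members. Across the 52 genes, which share their libraries, Pearson's r between difference and GC content was 0.38 and Spearman's rho 0.51; across 13657 coding genes these were 0.40 and 0.44. With transcript length the members' r was 0.04 and rho -0.20, while across the same coding genes r was -0.24 and rho -0.32.

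When offsets for both length and GC content were fitted over all coding genes, the median of the 52 genes was -0.16, beside -0.02 for all genes in that fit, and 42 of the 52 lay below 0. The members' median then lay between -0.24 and -0.14 in each of the 5 GC classes, where the medians of all genes were -0.04 to -0.00. In that fit 4 members were called lower (background 2.5%), namely Hnrnpa1, Hnrnph1, Luc7l2 and Srsf1, and Sf3b5 was called higher (background 3.05%). The edgeR adjusted p was 0.018 for Srsf1 and 0.0336 for Hnrnpa1. The offset for length alone gave 0 members called lower (background 0.044%) and 0 higher (background 0.477%) by edgeR. Both offsets took a gene's length as the median over all its annotated transcripts, of any class. That median can lie far below the longest coding transcript, with 896 beside 5362 bases for Srsf1 and 869 beside 7640 for Hnrnpu. For Hnrnpa0 both are 2678 bases. Decay and retained-intron transcripts are more often listed for the members, as given below. The part of this in the values under the offsets was not tested.

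**Figure D4:**
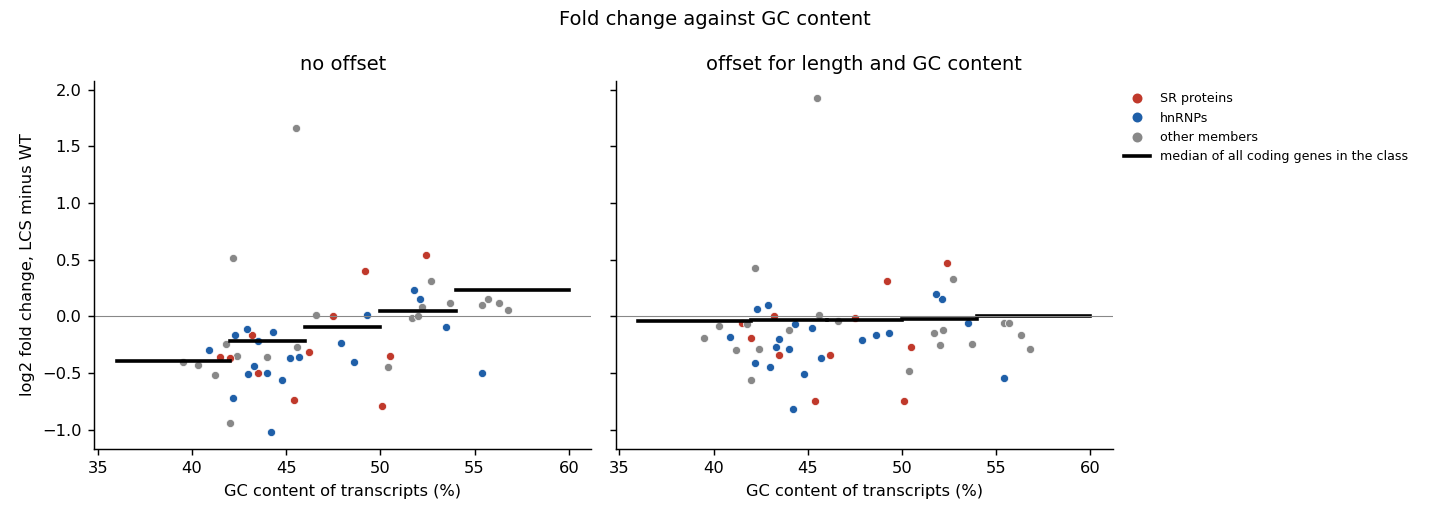
Log2 fold change (LCS minus WT, y axis) of the 52 genes against the GC content of their transcripts in percent (x axis), with no offset (left) and under the offsets for length and GC (right); black bars are medians of all coding genes in 5 GC classes. On the left the black bars climb from -0.39 to 0.23 and the members follow; on the right the bars lie near 0 and 42 of the 52 members lie below 0.

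Features of annotation were also examined. An annotated transcript subject to nonsense-mediated decay was listed for 32 of the 52 (61.5%), beside 27.8% of 13651 coding genes tested, and a retained-intron transcript for 41 (78.8%), beside 57.5%. SR protein and hnRNP genes are known for such transcripts, through which they limit their own levels. The median difference was -0.33 over the 32 genes with such a transcript, of which 23 lay below 0, and -0.10 over the other 20, of which 12 did. Counts per gene do not tell these transcripts from the coding ones. Sequences of 50 bases shared with other loci were found in 29 genes, in 27 of them with a pseudogene and in 9 over more than 20% of the exon sequence. The 9 are Hnrnpa1, Hnrnpa3, Hnrnpf, Hnrnpk, Sf3b4, Srsf3, Srsf5, U2af1 and U2af2. Their counted levels are uncertain for the reason given for Hnrnpa1. Genes on the opposite strand overlap 18 of the 52, and genes on the same strand overlap 6. Shared stretches and overlaps were not counted over all tested genes, so these counts do not set the 52 apart from other genes.

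Other parts of the splicing machinery were examined through 9 lists with 185 tested genes. Of these, 6 rose (3.24%, where 2.06% of all tested genes did) and 0 fell by edgeR (0.144% of all tested genes). At an unadjusted p under 0.05, 28 were higher (15.1%, background 13.3%) and 41 lower (22.2%, background 10.8%). The calls were 27 higher and 36 lower without WT replicate 1 (background 12.5% and 7.68%). They were 4 higher and 2 lower without LCS replicate 2 (background 1.77% and 0.284%), and 1 higher without LCS replicate 1 (background 0.581%). Leaving out LCS replicate 3, WT replicate 2 or WT replicate 3 gave 2 higher each (background 0.547%, 0.748% and 0.931%). The Sm and LSm proteins, which form rings on the spliceosomal RNAs, lay mostly on the other side of 0, with 16 of 17 above it, a median of 0.71 and 5 called higher. Snrpd2 stood at 63.0, 43.3 and 72.8 CPM in LCS and 30.1, 32.9 and 30.1 CPM in WT (0.94, SE 0.19, edgeR adjusted p = 0.0377). Lsm7 was at 15.8, 12.8 and 23.3 CPM in LCS and 6.61, 7.16 and 6.01 CPM in WT (1.39, SE 0.23, edgeR adjusted p = 0.0176). Snrpg and Lsm4 also rose, by 0.76 and 0.91. The listed Naa38 (1.06, edgeR adjusted p = 0.0113) codes by its gene number for a subunit of an N-terminal acetyltransferase, and without it the list had 4 of 16 called and a median of 0.70. These transcripts are short, with a median of 665 bases beside 1498 for the 52 genes. Under the offsets for length and GC their median difference was 0.47, with 6 called higher (background 3.05%). The offset for length alone gave a median of 0.46 and ended every call in the list: the edgeR adjusted p became 0.0514 for Lsm7, 0.057 for Naa38, 0.0767 for Snrpd2, 0.0919 for Lsm4 and 0.138 for Snrpg. Without LCS replicate 1 only Naa38 was called among the 17.

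Among the U5, tri-snRNP and Prp19 complex genes 1 of 32 rose, Syf2 (0.77, SE 0.15, edgeR adjusted p = 0.0336; 0.0793 with the length offset and 0.0939 without LCS replicate 1), and their median was 0.11. No gene of the U1 and U2 list (21 tested, median 0.08), the minor spliceosome list (7, median 0.13) or the exon junction and decay list (15, median 0.16) passed. The lists of regulators and helicases had medians below 0: -0.26 over 24 SR-related and speckle genes, -0.23 over 14 genes for SR protein kinases, phosphatase regulators and importers, -0.16 over 12 helicases and -0.45 over 43 other alternative splicing regulators. None of these passed the adjusted threshold. Of the 43, 19 were lower and 2 higher at an unadjusted p under 0.05, where 10.8% and 13.3% of all tested genes were. Examples are Qk (Quaking), at -1.05 (SE 0.24, edgeR adjusted p = 0.0568), and Celf1 at -0.82 (0.0787), while Raly was at 0.87 (0.0612). Of the SR-related genes 8 were lower and 0 higher at that threshold, among them Nktr (-0.82) and Rbm25 (-0.69). In the kinase list 5 were lower and 0 higher, among them Prpf4b (-0.80), a kinase, and Tnpo2 (-0.79), an importer. Another importer, Tnpo3, was at 0.06 (SE 0.13), and 4 of the 14 genes in that list lay above 0. Ddx17, a helicase, was at -0.90 (SE 0.21, edgeR adjusted p = 0.0549).

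**Figure D5:**
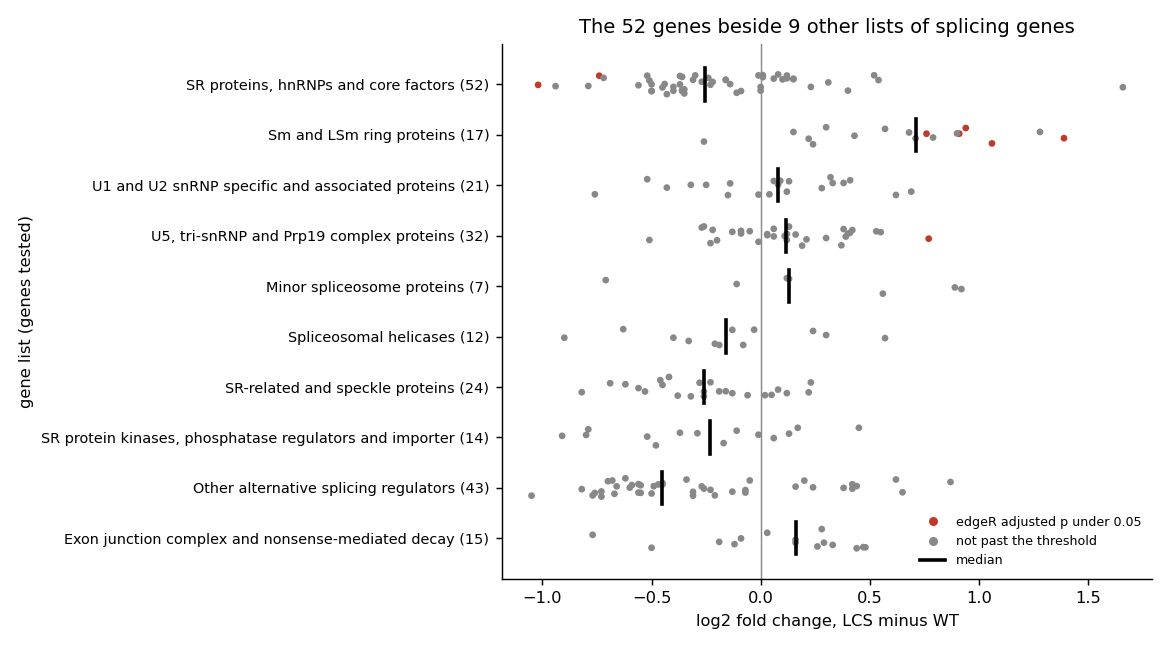
Difference between groups on the log2 scale, LCS minus WT (x axis), of each tested gene in the 52-gene set and in 9 other lists of splicing genes (y axis, genes tested in brackets); red points were called by edgeR at 0.05 and black bars are medians. The Sm and LSm proteins have a median of 0.71, the 52 genes -0.26 and the other alternative splicing regulators -0.45.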

How the data were processed

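Islet RNA, labelled as poly(A) RNA, was made into libraries with a stranded TruSeq kit, per the labels' protocols. The build mm9 and the tools HTSeq 0.9.0, Bowtie2 2.2.9, TopHat2 2.1.1, FastQC and bcl2fastq 2.20 are listed by the submitters' processing notes. What each did, which annotation was used and how strand was set is not given in the sources used here. The authors deposited raw whole-number counts per gene for 24407 genes. Each library's group was read from its source label; replicate numbers follow accession order.

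The main test was edgeR 4.0.16 in R 4.3.3: filterByExpr at its defaults, TMM scaling (factors 0.633 to 0.749 in LCS and 1.395 to 1.498 for WT libraries) and a quasi-likelihood fit with genotype as its only term over all 6 libraries. P-values were adjusted by Benjamini-Hochberg and genes called at 0.05. The SE given with edgeR differences was derived as the absolute log2 difference divided by the square root of the test's F statistic. Only the main fit and the offset for length and GC were also run on simulated counts, drawn with the same dispersion for every gene. Those counts held no effect of GC content, length, ribosomal reads or an outlying library, so they do not test the handling of these. Alternatives were DESeq2 1.42.0 (Wald test; size factors), limma-voom 3.58.1, other filters, coding genes only, loess offsets (span 0.5) for transcript length and GC content, and leaving libraries out. A gene's length and GC content were taken as the median of its GENCODE M21 transcripts, whose build differs from mm9; levels per kb used the union of exons. Deviations per library used log2(CPM + 0.5).

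The members, the lists and the alternatives were chosen with earlier results of these data known. The rule for named genes allowed any member, gave values per library for called genes and up to 3 per role by p, and took up to 3 genes of each other list by p; Snrpg and Lsm4, outside it, were named after their values were seen. Marker lists not named in the results (alpha, duct, endothelial, T cell, stellate and fibroblast, neural and Schwann) had 0 called genes. Figures were drawn with matplotlib 3.10.9.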

Additional observations from a re-analysis of the deposited data

How the results depend on the processing

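Over 16 alternatives the members' median stayed below 0 (-0.34 to -0.16), but the calls depended on the processing, and the cause was not tested. Members called higher and lower (main 0 and 2) were 1 and 8 with DESeq2's Wald test, 1 and 4 with the length and GC offset, 0 lower with the length offset and 1 lower with coding genes only. They were 1 and 3 each with limma-voom and with no filter, and 2 and 3 without WT replicates 1 and 2 (the lone WT library is then assumed to vary like the LCS libraries). They ran from 0 to 3 higher and 0 to 14 lower when leaving out 1 library each. All genes called higher and lower (main 300 and 21) were 937 and 571 with DESeq2, 65 and 6 with the length offset, 560 and 126 with no filter, 884 and 331 without WT replicates 1 and 2, 341 lower with the length and GC offset, and 81 to 1857 and 1 to 1142 without 1 library. The other splicing lists (main 6 and 0) gave 14 and 23 with DESeq2, 10 and 8 with no filter, 15 and 19 without WT replicates 1 and 2, 0 higher with the length offset, 16 lower with the length and GC offset, 1 lower with limma-voom, and 1 to 27 and 0 to 36 without 1 library. Of 1293 values for 81 genes (the 52 and those named from other lists), 1085 kept direction and side of the threshold, 108 passed it, 42 no longer did and 58 changed sign.

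The 58 sign changes were in 15 members. With either DESeq2 alternative, Hnrnpm and Sf3a3 were -0.01 and Srsf2 and U2af1 -0.02. With the length offset, Hnrnpm was -0.19, Sf3a2 -0.12, Sf3a3 -0.17, Sf3b2 -0.09, Sf3b4 -0.01, Srsf2 -0.09, U2af1 -0.22 and U2af1l4 -0.16. With the length and GC offset, Clk2 was -0.06, Hnrnpc 0.10, Hnrnpdl 0.07, Hnrnpm -0.15, Sf3a2 -0.29, Sf3a3 -0.04, Sf3b2 -0.12, Sf3b3 0.01, Sf3b4 -0.16, Srsf2 -0.01, U2af1 -0.25, U2af1l4 -0.24 and U2af2 -0.06. Limma-voom gave Clk2 -0.08 and U2af1 -0.00, no filter gave Srsf2 and U2af1 -0.00, and a minimum of 10 CPM gave Sf3a1 0.06. Without WT replicates 1 and 2, Hnrnpul1 was 0.15, Sf3a1 0.16 and U2af1 -0.17. Leaving out 1 library each gave -0.26 to 0.46 for Clk2, -0.08 to 0.18 for Hnrnpm, -0.20 to 0.14 for Hnrnpul1, -0.08 to 0.06 for Sf3a1, -0.09 to 0.37 for Sf3a2, -0.10 to 0.15 for Sf3a3, -0.01 to 0.30 for Sf3b4, -0.13 to 0.23 for Srsf2 and -0.11 to 0.16 for U2af1. No paired analysis was possible because the title numbers are not shared between the groups.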
